A study of Bos taurus with 8 samples.

Results

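Gene expression in rumen papillae of dairy cattle was compared between the second (P2) and the first (P1) period of a crossover feeding trial, using the 8 arrays of the series, 4 from each period. Each period held 2 arrays of cows on the low-concentrate diet (LC, 40% concentrate feed) and 2 of cows on the high-concentrate diet (HC, 70% concentrate feed). The animals were 4 lactating Holstein cows with a rumen cannula, and every cow gave 1 sample in each period. In P1, cows 1 and 2 received LC and cows 3 and 4 received HC, and in P2 each cow received the other diet. Before P1 all cows had eaten a diet with less concentrate than LC. Papillae were excised from the ventral sac on day 21 of each period, 4 h after the morning feeding, and their RNA was hybridised to single-colour Agilent bovine arrays. All 4 arrays of P1 lay on 1 slide and all 4 arrays of P2 on another, and the effects of slide and period therefore cannot be told apart. P2 also came after P1 in every cow, so stage of lactation, time on trial and the diet eaten earlier cannot be told apart from period either.

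Rumen papillae are finger-like folds of the forestomach wall. A keratinised stratified squamous epithelium, which absorbs and partly oxidises the short-chain fatty acids made by the rumen microbes, covers a core of connective tissue with blood vessels, smooth muscle and immune cells. The epithelium is a barrier between the rumen contents and the blood, and both its cells and the leukocytes beneath it can release cytokines, chemokines and antimicrobial peptides.

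The labelled tissue was borne out by its markers. A probe is called detected here where the scanner software marked it as well above background. Of the 8 keratinocyte markers 5 had a named probe, and 4 of these were detected on all 8 arrays, with a mean log2 signal in P1 of 18.01 for KRT14, a keratin of basal cells, 16.59 for DSP, a desmosome protein, 14.68 for PKP1 and 12.22 for DSG3. TP63, a transcription factor of squamous epithelium, was detected on no array. The log2 of the summed keratinocyte signals was 18.34 to 18.71 in P1 and 18.30 to 18.58 in P2. The summed leukocyte markers reached 11.11 to 11.61 in P1 and 11.23 to 11.99 in P2, fibroblast markers 13.73 to 14.22 and 13.70 to 14.13, smooth muscle markers 13.97 to 14.41 and 14.07 to 14.51, endothelial markers 9.31 to 10.07 and 9.38 to 9.68, and red blood cell markers 11.56 to 13.32 and 11.81 to 13.14. The ranges of both periods overlapped for every one of these cell types, but the sums weigh the brightest markers most. Among single markers, CD3E of leukocytes and LUM of fibroblasts were higher in P2, by 0.50 and 0.24 on the log2 scale. ALAS2 of red blood cells was lower in P2 but was detected on only 2 arrays. No other marker had an unadjusted p under 0.05 in the limma model described below. The samples were whole papillae, so fewer cells of a type and less RNA per cell cannot be told apart in any of the results.

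The slides differed in their darkest spots. The net signal of the negative-control spots was 6.37 to 6.72 intensity units on the P1 arrays and 8.36 to 8.73 on the P2 arrays, and the local background was 8.16 to 10.0 and 10.66 to 10.79, with no overlap in either. The mean log2 signal of 7 bright spiked-in controls was 11.91 to 12.03 in P1 and 11.75 to 12.06 in P2, and the median intensity of the gene probes was 101 to 123 and 92.1 to 132, both overlapping. The share of probes detected was 79.8 to 81.2% in P1 and 76.9 to 79.9% in P2. There were 72 probes detected on all 4 arrays of P1 and on 0 of P2, and 0 probes with the reverse pattern. What part the darker spots had in the differences described here was not tested.

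**Figure D1:**
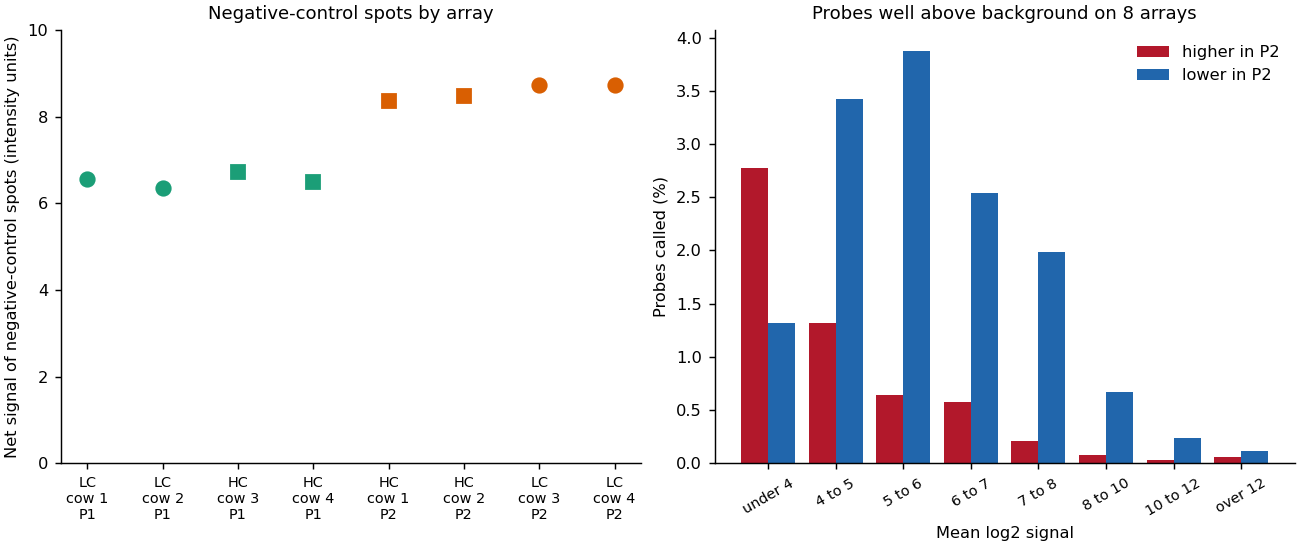
Left, net signal of the negative-control spots (intensity units) on each array, circles for LC and squares for HC, green for P1 and orange for P2. Right, percent of the probes detected on 8 arrays that passed both thresholds, by mean log2 signal and direction. The P1 arrays sit between 6.37 and 6.72 and the P2 arrays between 8.36 and 8.73, and the share of probes called falls from 4.09% under a log2 signal of 4 to 0.167% over 12.

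More probes were lower than higher in P2, and most of them were dim. Of 21475 probes, 828 (3.86%) passed both thresholds, a difference of 1.5-fold or more together with an unadjusted p below 0.05 in a limma model of diet, period and the interaction of both. In P2, 234 (1.09%) were higher and 594 (2.77%) lower, and the higher ones were thus 28.3% of those called. With each array scaled to its 75th percentile in place of quantile normalisation, 85 were higher and 1072 lower, so that the higher ones were 7.35% of those called. An unadjusted p under 0.05 was found for 2636 probes (12.3%), and a Benjamini-Hochberg adjusted p under 0.05 for 9 (0.0419%). The 4 arrays of P1 and the 4 of P2 did not overlap for 1606 probes (7.48%), of which 621 (2.89%) were higher and 985 (4.59%) lower in P2. With cow as a block, 962 probes were called, 800 of them among the 828, and 0 had an adjusted p under 0.05, the smallest being 0.115. When cow was a random block, 972 were called and 468 had an adjusted p under 0.05, and under 75th percentile scaling 144 did.

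Period accounted for a larger share of the variation than diet, each being 1 contrast, but for less than the 3 contrasts between cows together. Among the 16030 probes detected on all 8 arrays, the sum of squares about the probe mean was split between these terms. Period took 18.1%, diet 8.54%, the 3 contrasts between cows 59.2% and the rest, with 2 contrasts, 14.1%. These are totals and not shares per contrast, and 1 contrast between cows is also the interaction of diet and period. In a principal component analysis of the same probes the arrays of both periods overlapped on the first component, with 28.4% of the variance. On the second, with 19.0%, the P1 arrays lay at 16.60, 17.99, 15.16 and −12.49 for cows 1 to 4 and the P2 arrays at −8.19, −7.10, 3.69 and −25.66. Each cow had a lower score in P2 than in P1, and the periods overlapped because the P1 array of cow 4 scored low.

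The share of probes called depended on the signal. Of the 16030 probes detected on all 8 arrays, 312 (1.95%) were called, 69 higher (0.43%) and 243 lower (1.52%). Among the 1958 probes detected on 1 to 7 arrays, 309 (15.8%) were called, and among the 3487 detected on none, 207 (5.94%). Within the 16030, the called share was 4.09% for probes with a mean log2 signal under 4, with 19 higher and 9 lower. It was 4.52% from 5 to 6, with 11 higher and 66 lower, and 0.167% over 12, with 1 higher and 2 lower. By annotation, 3.63% of the probes identified by a probe name alone were called and 3.11% of those of Ensembl transcripts, against 1.56% of probes of curated RefSeq transcripts. The former also had a lower median log2 signal, 6.67 and 7.09 against 9.16. At the level of genes, using the brightest probe of each, 98 of 6469 genes on all 8 arrays were called (1.51%), 25 higher (0.386%) and 73 lower (1.13%).

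**Figure D2:**
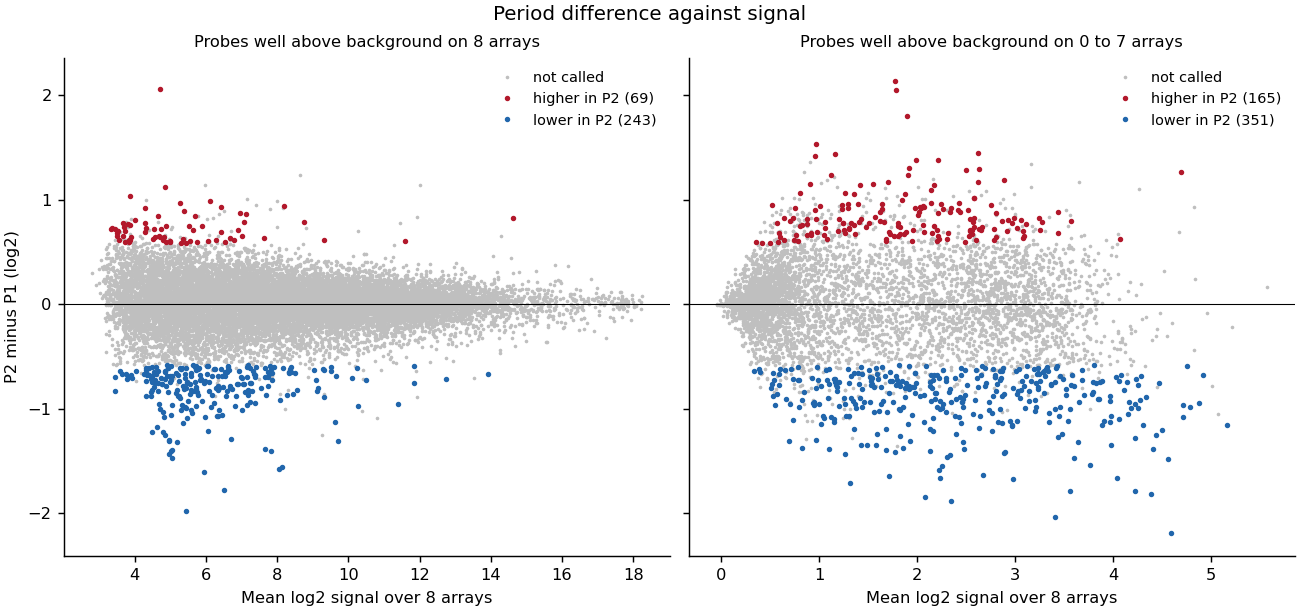
Difference between periods (P2 minus P1, log2) of each probe against its mean log2 signal over 8 arrays, for probes detected on 8 arrays (left) and on 0 to 7 arrays (right). Called probes are red where higher and blue where lower in P2. On the left 69 are red and 243 blue, and nearly all of them lie at a log2 signal under 10.

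Of the 9 probes with an adjusted p under 0.05, 8 were lower in P2 and 1 was higher. They are described here after their values were seen. The higher probe, A_73_119660, was detected on no array, so no fold change is given. The probe A_73_120629 of the Ensembl transcript ENSBTAT00000019414 was the brightest of the 9, with a mean log2 signal of 8.52 in P1 and 7.11 in P2 (difference −1.41 ± 0.11, SE, adjusted p = 0.0373), and no gene symbol was available for it. Its 4 arrays of P2 read 7.02, 7.32, 7.17 and 6.92. These all lay below the P1 mean by more than a log2 unit. The only one of the 9 probes with a gene symbol, A_73_115424, belonged to NFKBID, an inhibitor of the NF-kappa B family, and fell by 1.31 on the log2 scale, from a mean of 5.61 to 4.30 (adjusted p = 0.0268). The other, brighter probe of NFKBID, A_73_110853, had a mean log2 signal of 7.48 and a difference of 0.04, with an unadjusted p of 0.678. The probes of this gene thus disagreed. With cow as a block, the adjusted p of each of the 9 probes was 0.115 to 0.125.

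Among called genes that were higher in P2 in all 4 cows, the 12 with the largest increases were led by KNG1, CXCL5 and MPPED2. Each of the 12 was detected on all 8 arrays. The arrays of both periods did not overlap for 5 of them, beside 5.67% of all genes on 8 arrays, a count from which nothing is read because the genes were chosen for this difference. Their adjusted p values were 0.0627 to 0.352, so none passed the adjusted test. KNG1 (NM_175774), the kininogen from which kinins are released, had log2 signals of 2.65, 5.11, 3.62 and 3.31 in cows 1 to 4 in P1 and 6.44, 6.25, 4.48 and 5.75 in P2. The 2 HC arrays were highest in P2, and the P1 array of cow 2 lay above the P2 array of cow 3. The mean difference was 2.06 ± 0.56 (SE), a 4.16-fold increase with an unadjusted p of 0.00996 in limma, and the call was lost without cow 4. The difference was 1.40 without cow 1 and 2.72 without cow 2.

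CXCL5 (NM_174300), a chemokine that draws neutrophils, read 5.37, 5.50, 5.57 and 6.02 in P1 and 7.36, 6.85, 5.88 and 6.32 in P2. It was highest in the 2 HC arrays of P2, and the lowest P2 array lay below the highest P1 array. The difference was 0.99 ± 0.18 (1.98-fold, unadjusted p = 0.00144 in limma). PRKG1 (NM_174436), the cyclic GMP-dependent protein kinase, had the lowest p of the 12. It read 2.96, 2.93, 3.22 and 3.27 in P1 and 3.60, 3.68, 3.98 and 3.99 in P2, and every P2 array was above every P1 array. The difference was 0.72 ± 0.08 (1.64-fold, unadjusted p = 8.55e-05, adjusted p = 0.0627 in limma). Its signal was close to the lowest that counted as detected (a log2 of 2.02 to 2.77), and its call was lost under 75th percentile scaling, as were those of DIRAS3, PLIN1, a coat protein of the fat droplets of adipocytes, FAIM, and KITLG, the ligand of the receptor KIT.

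Among the rest of the 12, MPPED2 rose 1.83-fold, KITLG 1.70-fold, DDO, an oxidase of D-aspartate, 1.68-fold, JCHAIN, the chain that joins polymeric immunoglobulins, 1.68-fold, PLIN1 1.67-fold, DIRAS3, a small GTPase, 1.66-fold, RAB27A, a regulator of vesicle secretion, 1.63-fold, FAIM 1.56-fold and CCL5, a chemokine for T cells, 1.53-fold. MPPED2 did not overlap between periods, with 6.959 as the highest P1 array and 6.997 as the lowest P2 array. JCHAIN ranged from 4.93 to 5.37 in P1 and from 5.32 to 6.31 in P2, so that only the P2 array of cow 3 fell within the P1 range. CXCL5, DIRAS3 and PRKG1 kept their call when any 1 array or any 1 cow was left out, MPPED2 and PLIN1 lost it without cow 4, and RAB27A without cow 4, cow 1 or the P1 array of cow 4, whereas KITLG, DDO, JCHAIN, FAIM and CCL5 each lost it in 5 to 8 of these 12 settings.

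Among called genes that were lower in P2 in all 4 cows, the 12 with the largest decreases were led by CHRNA4, DCT and CFP, and their mean log2 signal in P1 was 3.17 to 8.91. Over all 7788 genes, 224 (2.88%) were called. Of the 12, 10 did not overlap between periods, beside 7.48% of all probes (4.59% lower in P2). Nothing is read from this count either, because the genes were chosen for this difference. Only 6 of the 12 were detected on all 8 arrays, and the others passed the detection filter through P1 alone, where they were high. Adjusted p values were 0.0572 to 0.285. CHRNA4 (NM_001192900), a subunit of neuronal nicotinic acetylcholine receptors, read 4.51, 4.14, 4.38 and 4.68 in P1 and 3.19, 1.99, 2.36 and 2.03 in P2. It was detected on all 4 arrays of P1 and on none of P2, and was at least 3.40-fold lower in P2 (adjusted p = 0.0834 in limma). Every P2 array was below every P1 array.

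DCT (NM_001012666), the melanin-synthesis enzyme dopachrome tautomerase, was the brightest of the 12. It read 9.13, 9.13, 8.25 and 9.13 in P1 and 7.37, 7.42, 7.99 and 6.61 in P2, a decrease of 2.96-fold (difference −1.56 ± 0.34, unadjusted p = 0.00321 in limma). The periods did not overlap, but the cow 3 arrays differed by −0.25 and the cow 4 arrays by −2.53. The call of DCT was kept in all 22 alternative settings. CFP (NM_001076178), the complement regulator properdin, had the lowest p. It read 6.10, 5.63, 5.68 and 5.62 in P1 and 4.58, 4.43, 4.31 and 4.11 in P2, and its decrease of 2.63-fold (−1.40 ± 0.13, unadjusted p = 3.18e-05, adjusted p = 0.0572 in limma) was alike in the 4 cows, −1.51, −1.20, −1.37 and −1.51. DBH (NM_180995), which converts dopamine to noradrenaline, read 5.82, 5.45, 5.29 and 5.34 in P1 and 4.47, 4.33, 4.21 and 3.86 in P2. This was 2.39-fold lower (−1.26 ± 0.13, unadjusted p = 5.84e-05 in limma), again with no overlap.

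ZBTB46, a transcription factor of dendritic cells, was at least 1.54-fold lower in P2, GKN1, a protein secreted by gastric mucosa, at least 1.76-fold and CEL, a lipase best known from the pancreas, at least 1.67-fold. All 3 were detected on the 4 arrays of P1 and on none of P2. TMEM108 had a mean of 5.06 in P1 and was detected on 1 array of P2, so its fold is not given. CNDP1, a carnosine dipeptidase, was 2.23-fold lower and was detected on 3 arrays of P2. PAG8, of the large family of pregnancy-associated glycoproteins, whose similar members a probe may not separate, was 2.12-fold lower, EPYC, a small proteoglycan, 2.12-fold and RSRP1 2.11-fold. Of the 12 genes, 8 kept their call when any array or cow was left out, while PAG8 and RSRP1 lost it in 5 of the 12 settings each, GKN1 without cow 4, and EPYC without cow 2 or cow 4. All 24 genes kept their call with cow as a fixed and as a random block. Nothing is read from this, nor from the calls kept when an array or a cow was left out. The 24 genes were chosen as the largest called differences that moved 1 way in every cow. After normexp background correction with an offset of 50, 29 of 33 called genes that were followed lost theirs, and none changed direction.

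**Figure D3:**
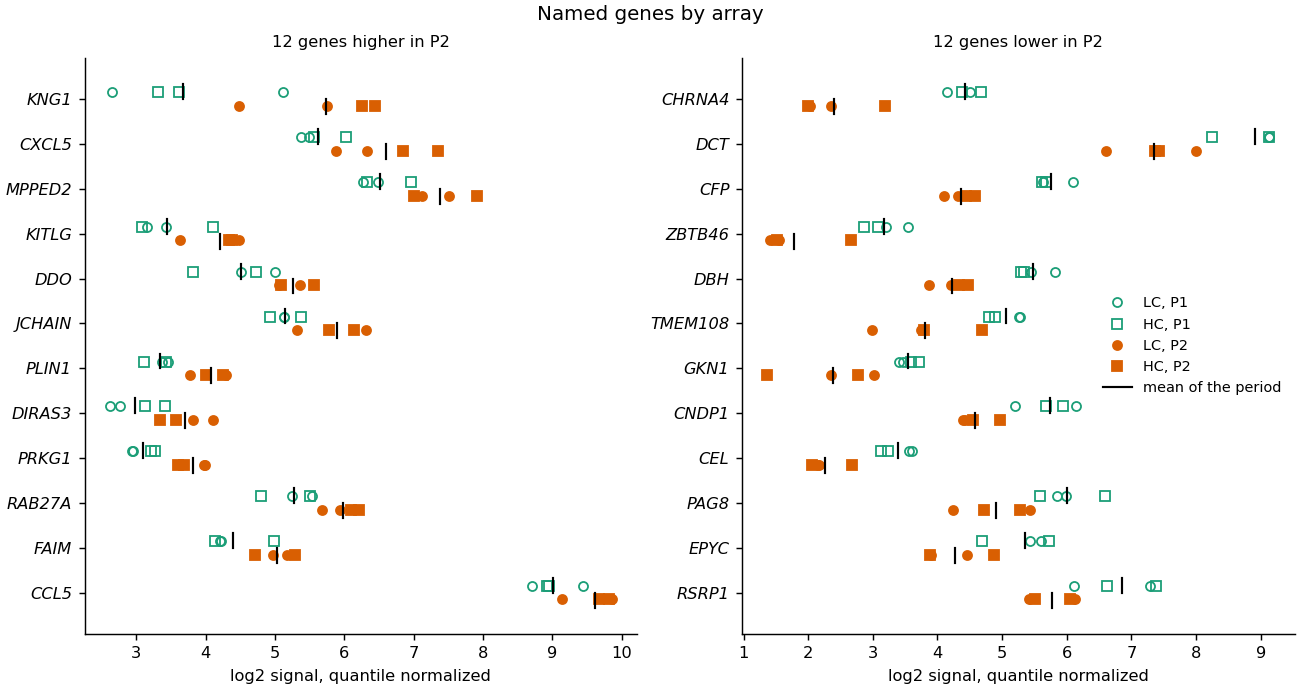
Quantile-normalised log2 signal of the 12 called genes with the largest increases (left) and decreases (right) in P2 among those that moved 1 way in every cow, 1 point per array. Open green symbols are P1 and filled orange symbols P2, circles LC and squares HC, and black bars are the mean of a period. The arrays of both periods are apart for 5 of the genes on the left and for 10 of those on the right.

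Most of the functions examined showed no called gene among those detected on all 8 arrays. Across 25 gene lists, 597 genes were measured and 547 were detected on all 8 arrays, and of these 8 were higher and 4 lower in P2, together 2.19%, beside 1.51% of all genes on 8 arrays. Of the lists, 18 had no called member on 8 arrays. None of the 57 oxidative phosphorylation genes was called, with a median difference of 0.01 and a range of −0.16 to 0.19. None was called among 56 cytosolic ribosomal proteins (median 0.02), 28 proteasome subunits (0.10), 15 glycolytic genes (−0.03), 29 genes of cell cycle and DNA replication (0.05) or 33 antioxidant, glutathione and metallothionein genes (−0.04). The median over all probes was 0.02. GAPDH, a glycolytic enzyme often used as a reference, had a difference of −0.11 ± 0.19 at its brightest probe. At its next brightest probe the difference was −0.13. At its dimmest probe it was −0.40 ± 0.21 (unadjusted p = 0.101 in limma, and 0.0134 with cow as a block).

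The lists nearest to the work of the rumen epithelium likewise held no called gene among those on 8 arrays. None of the 20 genes of ion and acid transport on 8 arrays was called (median −0.02, range −0.33 to 0.35), none of 10 tight junction genes (−0.02), none of 16 cholesterol synthesis genes (−0.09) and none of 9 genes of ketone body and short-chain fatty acid metabolism (−0.01). ACSM4 of the last list was called, lower in P2, but was detected on no array, so no fold change is given. ACSM1, an acyl-CoA synthetase for medium-chain fatty acids, had a difference of −0.31 with an unadjusted p of 0.0136 in limma and did not reach the fold threshold. CYP51A1, a demethylase of cholesterol synthesis, differed by −0.39 (unadjusted p = 0.0218 in limma), also under the fold threshold. None of 25 genes of keratinocyte differentiation and cornification was called (median −0.06). With cow as a block, 2 of them were, both lower in P2. These were CDSN, corneodesmosin, with a difference of −0.61 (unadjusted p = 0.0215, against 0.0633 without the block and 0.121 with cow as a random block), and DSG1, the desmoglein of the upper layers, with −1.09 (unadjusted p = 0.0193, against 0.234 and 0.112), so that neither was called with cow as a random block. DSG1 varied widely between cows, from 10.03 to 12.92 in P1 and from 9.13 to 12.26 in P2, and was lower in P2 in all 4.

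**Figure D4:**
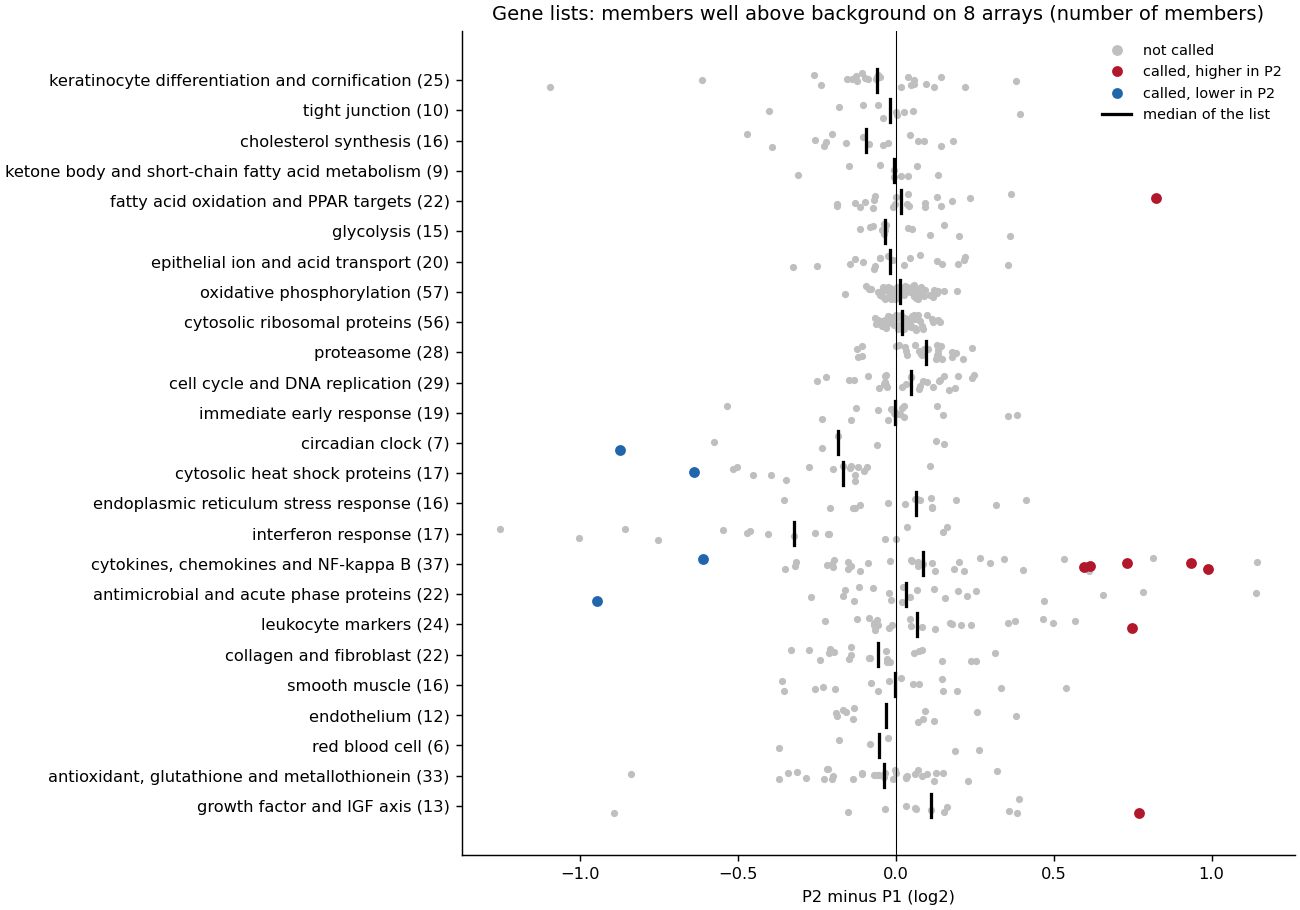
Difference between periods (P2 minus P1, log2) of the members of 25 gene lists that were detected on 8 arrays, 1 point per gene, with black bars at the median of each list and the number of members in parentheses. Called genes are red where higher and blue where lower in P2. The medians run from −0.32 for the interferon response to 0.11 for the growth factor and IGF axis, and the cytokine list holds 5 of the 8 red points.

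The list of cytokines, chemokines and NF-kappa B genes held the most calls. Of its 37 members on 8 arrays, 5 were higher in P2 (CXCL5, CXCL8, CCL4, CCL5 and IL1B) and 1 was lower (CCL3). Of all genes on 8 arrays, 0.386% were higher and 1.13% lower. An unadjusted p under 0.05 was found for 10 members, beside 8.21% of those genes. Among probes on 8 arrays, that share was 19.6% at a mean log2 signal of 4 to 5, 16.6% at 6 to 7 and 7.53% at 8 to 10. The list was chosen with earlier results of these data known, so nothing is read from its counts. The median of the list was 0.09, with medians of 0.29, 0.18, −0.06 and 0.07 in cows 1 to 4. CXCL8 (NM_173925), the interleukin-8 that draws neutrophils, read 5.91, 6.20, 6.12 and 5.59 in P1 and 7.69, 7.90, 5.23 and 6.74 in P2. It was highest in the 2 HC arrays of P2 and lowest in the P2 array of cow 3, so the periods overlapped. Its difference of 0.93 ± 0.34 (1.91-fold, unadjusted p = 0.0311 in limma) was not called with cow as a block (unadjusted p = 0.0529) and lost its call in 9 of 12 settings that left out an array or a cow.

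IL1B (NM_174093), the inflammatory cytokine interleukin-1 beta, read 4.60, 5.06, 4.73 and 3.92 in P1 and 5.91, 6.28, 4.15 and 4.36 in P2. The 2 HC arrays of P2 stood above the other 6, which overlapped. The difference between periods was 0.60 ± 0.22 (1.51-fold, unadjusted p = 0.0338 in limma), and it differed between diets by 2.35 (unadjusted p = 0.00155 for the interaction in limma, not past the adjusted threshold). That interaction is also the contrast of cows 1 and 2 with cows 3 and 4. Its p counted both arrays of each cow as independent. IL1B was not called without the interaction term or with cow as a random block (unadjusted p = 0.118). CCL4 (NM_001075147), a chemokine of macrophages and T cells, read 3.96, 3.79, 3.93 and 4.10 in P1 and 5.20, 5.11, 3.65 and 4.75 in P2, a 1.66-fold difference (unadjusted p = 0.0209 in limma), and was higher in P2 in 3 of the 4 cows. CCL5 was higher in P2 in all 4 cows, by 1.11, 0.22, 0.19 and 0.94. The calls of IL1B, CCL4, CCL5 and CCL3 were each lost in 7 or 8 of the 12 settings with an array or a cow left out.

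CCL3 (NM_174511), a close relative of CCL4, went the other way, with 7.24, 7.73, 7.29 and 7.88 in P1 and 6.65, 7.24, 7.15 and 6.66 in P2. The lowest P1 array and the highest P2 array both rounded to 7.24, and the mean was 1.53-fold lower in P2 (unadjusted p = 0.0365 in limma). Under the fold threshold, TNFAIP3, an inhibitor of NF-kappa B signalling, differed by 0.53 (unadjusted p = 0.0201), CCL14 by 0.40 (unadjusted p = 0.0104), and MYD88, the adaptor of Toll-like receptors, by −0.32 (unadjusted p = 0.014), all from limma. With cow as a block, 2 further chemokines of the list were called, both higher in P2. CCL19, which guides T cells and dendritic cells, differed by 1.14 (unadjusted p = 0.00103, against 0.0597 without the block), by 2.30 and 1.67 in cows 1 and 2 and by 0.11 and 0.49 in cows 3 and 4. CCL8, a monocyte chemokine, differed by 0.82 (unadjusted p = 0.00275, against 0.109), with 2.00 and 1.36 in cows 1 and 2 and −0.03 and −0.07 in cows 3 and 4. In cows 1 and 2, P2 was the HC period.

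Genes of antimicrobial defence and leukocytes had medians near that of all probes. Of 22 antimicrobial and acute phase genes on 8 arrays, 1 was called (median 0.03, and 0.43, −0.06, −0.06 and −0.03 in cows 1 to 4). CATHL6 (NM_174832), of the cathelicidin family of antimicrobial peptides, read 8.26, 7.77, 7.40 and 7.96 in P1 and 6.84, 7.01, 6.73 and 7.02 in P2. All P2 arrays were below all P1 arrays, and the 1.93-fold decrease (−0.94 ± 0.18, unadjusted p = 0.00174, adjusted p = 0.136 in limma) was kept in each of the 22 alternative settings. SAA3, an acute phase protein, ranged over 8.86 to 12.60 in P1 and 9.07 to 13.59 in P2. It was higher in P2 in every cow, by 0.21 to 1.21, and was called with cow as a block (unadjusted p = 0.00241) and neither without it (unadjusted p = 0.424) nor with cow as a random block (unadjusted p = 0.332). Among 24 leukocyte markers on 8 arrays, JCHAIN alone was called, and the median was 0.07, with 0.54, 0.04, −0.15 and 0.03 in cows 1 to 4. Cow 1 had the highest median in both lists, as in the cytokine list. What part leukocytes had in the differences of the cytokine genes was not tested. CD3E, a chain of the T cell receptor complex, differed by 0.50 (unadjusted p = 0.0112 in limma) and was under the fold threshold. MS4A1, the B cell antigen CD20, was lower in P2 (unadjusted p = 0.00238 in limma), with a mean of 3.75 in P1, and was detected on 4 arrays of P1 and 1 of P2, so its fold is not given.

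The interferon list had the lowest median of the lists, −0.32, and no called gene among 17 on 8 arrays. Its median was 0.27, −0.14, −0.05 and −0.83 in cows 1 to 4. MX1, an interferon-induced antiviral GTPase, read 8.25, 8.09, 7.38 and 11.20 in P1 and 8.96, 6.85, 7.04 and 8.05 in P2. ISG15, an interferon-induced ubiquitin-like protein, read 8.004, 10.25, 7.72 and 13.57 in P1 and 8.75, 8.32, 7.15 and 10.32 in P2. In both genes the HC array of cow 4 in P1 stood far above the rest. With all arrays, MX1 differed by −1.005 ± 0.90 and ISG15 by −1.25 ± 1.41. Without the P1 array of cow 4, the median of the list was 0.08 in place of −0.32, and MX1 and ISG15 differed by −0.05 and 0.21. Without the P1 array of cow 3, the median was −0.65, and MX1 and ISG15 differed by −1.96 and −2.72. HERC6, PARP9, IRF9 and IFIT5 were also lower in P2. The array of cow 4 was then the only HC array of P1, so calls in that setting are not quoted. With all arrays, IFIT5, also induced by interferon, differed by −0.47 (unadjusted p = 0.0324), by −0.29 to −0.73 in the 4 cows, with no overlap between periods and under the fold threshold.

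Of the remaining lists with calls, the circadian clock and the heat shock proteins had negative medians. NPAS2 (NM_001083763), which partners BMAL1 in the molecular clock, read 5.88, 5.67, 5.52 and 5.53 in P1 and 5.15, 4.62, 4.75 and 4.58 in P2. The periods did not overlap, and the decrease was 1.83-fold (−0.88 ± 0.14, unadjusted p = 0.000702, adjusted p = 0.105 in limma). It was the only one of 7 clock genes on 8 arrays to be called. NFIL3, a repressor of clock-controlled genes, differed by −0.58 (unadjusted p = 0.0182 in limma), just under the fold threshold, and DBP, a clock output gene, by −0.18 (unadjusted p = 0.121). The 17 cytosolic heat shock genes had a median of −0.17, with cow medians of −0.26, −0.27, −0.29 and −0.04. DNAJA4, a co-chaperone of HSP70, was called, with 10.04, 10.15, 9.61 and 9.53 in P1 against 8.70, 9.38, 9.39 and 9.31 in P2. It did not overlap and was 1.56-fold lower (unadjusted p = 0.00627 in limma), but the call was lost without the P2 array of cow 1 and without cow 1 or cow 4. The small heat shock protein HSPB8 differed by −0.52 (unadjusted p = 0.00457 in limma), under the fold threshold.

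FABP4, a fatty acid-binding protein of adipocytes and capillary endothelium, was the brightest called gene of the lists. It read 12.55, 13.88, 15.43 and 15.02 in P1 and 15.10, 14.77, 15.20 and 15.11 in P2. The 2 LC arrays of P1 were low and the other 6 arrays were alike. The period difference was 0.83 ± 0.30 (1.77-fold, unadjusted p = 0.0306 in limma), with a change in cow 3 of −0.23. This difference came with an interaction of −2.23 (unadjusted p = 0.00873 in limma). The interaction p counted both arrays of each cow as independent, and limma over cow means gave an unadjusted p of 0.00647. In 8 of the 12 settings that left out an array or a cow, the call was lost, as it was without the interaction term and with cow as a random block (unadjusted p = 0.0594). ASNS, asparagine synthetase, in the list of the endoplasmic reticulum stress response, was higher in P2 without overlap, 10.90 to 11.12 against 11.27 to 11.51, but its difference of 0.41 (unadjusted p = 0.00443 in limma) was under the fold threshold. Among connective tissue genes, none of 22 on 8 arrays was called.

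**Figure D5:**
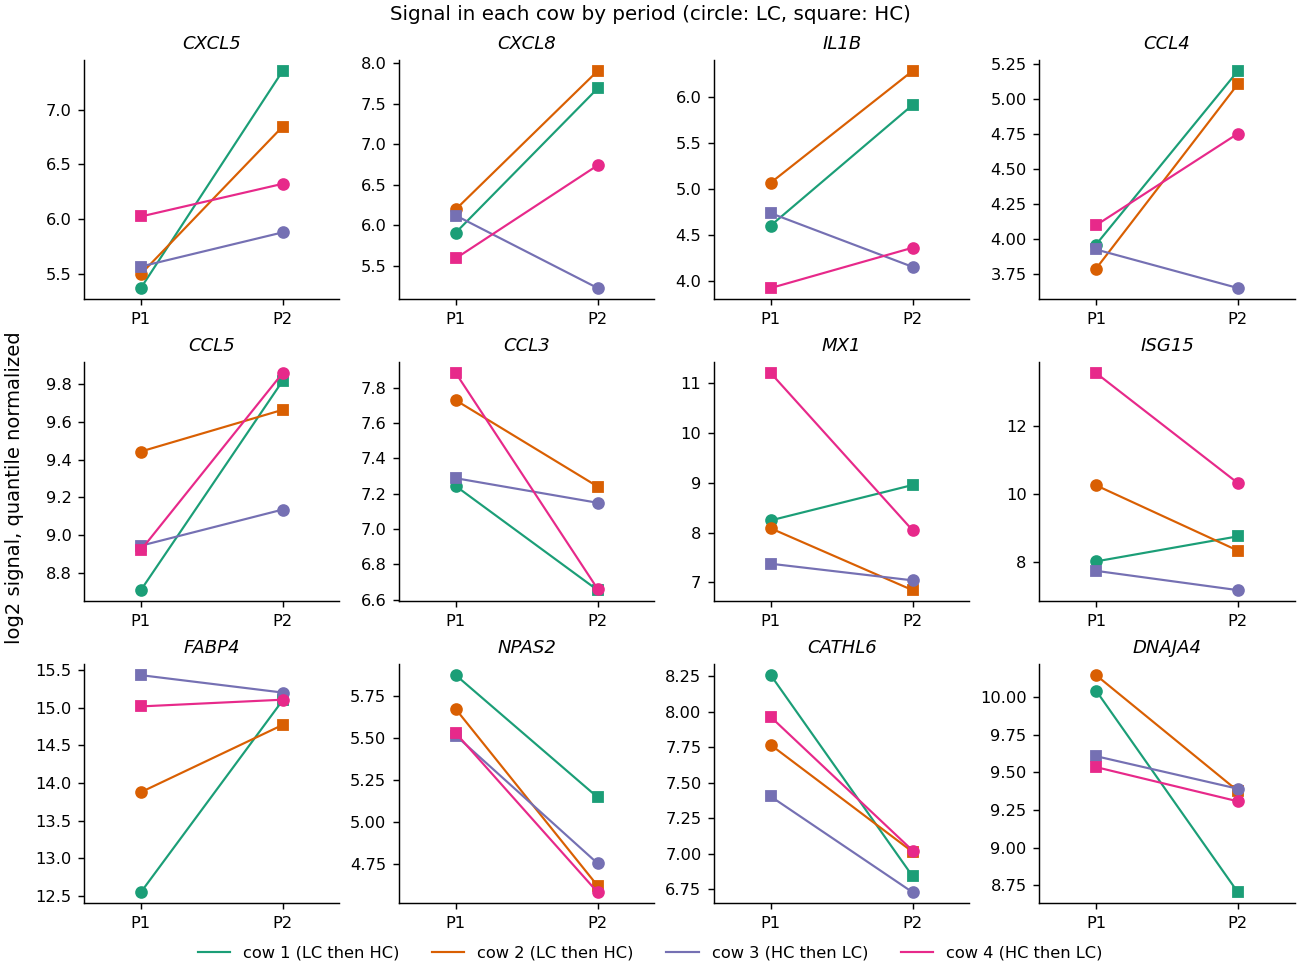
Quantile-normalised log2 signal of 12 genes in P1 and P2, 1 line per cow, circles LC and squares HC, with a separate vertical scale for each gene. CXCL8, IL1B and CCL4 are highest in the HC arrays of P2 and are lower in P2 than in P1 in cow 3, MX1 and ISG15 are highest in the P1 array of cow 4, and NPAS2, CATHL6 and DNAJA4 are lower in P2 in all 4 cows.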

How the data were processed

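Single-colour arrays of rumen papillae of 4 cows were assigned to P1 or P2, to a diet and to a cow from their labels. Per the file headers, Agilent Feature Extraction 10.7.3.1 made the deposited scanner output, in which each spot has a background-subtracted intensity and a flag, another kind of value, saying whether the spot was well above background. The authors also deposited log2 values, quantile-normalized in GeneSpring, whose column medians were all 6.79. Their scale is log2, and whether further centring was applied stays unknown.

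The 42990 spots that are not controls, from 21475 probes, were used without spots marked as outliers. Their log2 intensities were quantile-normalized, and the spots of a probe averaged, with limma 3.58.1 in R 4.3.3. Plots were made with matplotlib 3.10.9 in Python 3.11.15. Of 10176 probes with a RefSeq accession, 8297 were named (7788 symbols) through the RefSeq gene table of ARS-UCD2.0, and the brightest probe stood for a gene. No positions are given, since the builds differ, and no sequences, since none were used here. No columns of the authors' own comparisons were used.

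The model fitted in limma had diet, period and the interaction of both (4 residual and 2.26 prior degrees of freedom), as in the authors' model. Differences are log2 with SE. Calls needed a fold of 1.5 and an unadjusted p under 0.05, and Benjamini-Hochberg values were computed over all probes. An exact two-sided permutation test of 4 arrays against 4 can give no p under 0.0286 and is not quoted for single genes. A probe well above background on no array of 1 period has only a lower bound, against the lowest signal well above background of each array. Each array holds the sample of 1 cow in 1 period, and the number of arrays limits the precision. The fit was tested on simulated data.

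The named genes were, in each direction, the 12 with the largest difference among called genes that moved 1 way in every cow and were detected on the 4 arrays of at least 1 period, up to 4 genes per list by p, and GAPDH, and 1 of them is not reported here. CXCL8, IL1B, CCL4, CCL3, CCL19, CCL8, SAA3, MS4A1 and ISG15, and NFKBID, were added after their values were seen. The members and lists were chosen with earlier results of these data known. To check the pairing, which comes from the cow in the labels, deviations from the period mean were correlated over 16030 probes. The r was 0.422, 0.511, 0.483 and 0.373 within cows 1 to 4, and −0.256 to −0.0393 between cows. The deviations of a period cancel out, so positive values within cows bring negative ones between cows. The cow entered as a block in an alternative fit, and other models, scalings, filters and left-out arrays were tried.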

Additional observations from a re-analysis of the deposited data

Results flagged for a closer look

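In 8 of 150 groups of 4 arrays tested (70 genes and 5 array measures in both periods), the highest or lowest array lay far from the other 3 by Dixon's test. Chance alone flags about 1 in 20 such groups. In P1, the array of cow 4 was high for HERC6, an interferon-induced gene (log2 9.05, next 6.06), for CCL8 (6.62, next 5.39) and for FAIM (4.99, next 4.22). The P1 array of cow 3 was low for DCT (8.25, next 9.13), and that of cow 1 was high for CFP (6.10, next 5.68). In P2, the array of cow 4 was low for KITLG (3.63, next 4.34), and the array of cow 1 was high for ZBTB46 (2.66, next 1.55) and low for DNAJA4 (8.70, next 9.31). None of the 70 genes had an adjusted p under 0.05 for a period difference that depended on diet.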

How the results depend on the processing

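The number of probes called for period, 828, stayed within 1.5 times of itself under other models, moderation, 75th percentile scaling and the deposited table. After normexp with an offset of 50 on the median spot signal, it was 32 (5 higher, 27 lower, 0 with an adjusted p under 0.05). Even so, 2335 probes then had an unadjusted p under 0.05, against 2636 in the main fit. The cause of the lower count was not tested. Tested among probes detected on all 8 arrays, 326 were called (78 higher, 248 lower), and on at least 4 arrays 502 (111 higher, 391 lower, 40 with an adjusted p under 0.05). The cause was not tested. Under 75th percentile scaling 85 were higher and 1072 lower, with 144 adjusted calls, and without moderation 130 were higher. The count of adjusted calls, 9, was 3 without the interaction, 4 in the deposited table and 0 with variance trend and robust moderation. With cow as a replicate block it was 0, and with cow as a random replicate block 468, when 3967 probes had an unadjusted p under 0.05. The fixed block left 2 residual degrees of freedom, while the random block used the same correlation within cows for all probes. What set the results of these 2 pairings apart was not tested. When any array or cow was left out, 847 to 1177 probes were called, 221 to 410 of them higher and 562 to 783 lower, 1738 to 2847 had an unadjusted p under 0.05 and 0 an adjusted one. A lone array of a diet and period was then assumed to vary like the others. Of 33 called genes followed, all kept their direction in every setting, and 1 lost its call with cow as a fixed block (CXCL8). With it 5 uncalled genes gained one (CCL19, CCL8, SAA3, CDSN and DSG1), and no other call among the 70 genes changed. The genes named for the largest differences were chosen for moving 1 way in every cow, which bears on these counts. With cow as a random block, IL1B and FABP4 lost theirs, and CCL19, CCL8 and IGFBP6 gained one. Leaving out an array or a cow ended 19 of the 33 calls at least once. Of 575 list medians recomputed, 24 moved by more than the SD over cows. The P2 arrays had the higher darkest signals, which limits what dim probes can show.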
